A study of Mus musculus with 2 samples.

Results

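The genes described here encode core proteins of neurotransmitter release: the SNAREs Snap25, Vamp2 and Stx1a, the calcium sensor Syt1, the synapsin Syn2, the complexins Cplx1 and Cplx2, and the vesicle GTPase Rab3a. All 8 were chosen by name from the 21938 protein-coding genes of the GENCODE M21 basic annotation, and each was read with 50 kb either side of its gene body in mm10. DNase-seq, which maps where DNase I cuts accessible chromatin, was done on the left cerebral cortex of 2 females of the F1 strain B6CASTF1/J, a B6 by CAST cross, aged 4 days. The mice were untreated, they form a single group with a library each (replicate 1 and replicate 2), their labels number them separately but share 1 donor record, and no other age, tissue or genotype was compared. Tissue is a mixture of cell types, so fewer cells with an open site and less cutting per cell cannot be told apart.

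Synaptic vesicles fuse when the vesicle SNARE Vamp2 zippers with Snap25 and Stx1a on the plasma membrane. Complexins bind the assembled complex, Syt1 triggers fusion when it binds calcium, synapsins tether the reserve vesicles, and Rab3a guides vesicles to the active zone. A DNase I hypersensitive site (DHS) is a region cut more than its surroundings, as at active promoters and enhancers, and a footprint is a short stretch inside it that is cut less than its flanks, as under a bound protein.

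Several stretches carry the results that follow and are printed 5′ to 3′ from the GRCm38.p6 (mm10) reference. The first pair are promoters from the RefSeq promoter table, which held 6 of the 8 genes. Stx1a (chr5:135023232-135023531, + strand) has 0.587 times the expected CpG sites within 500 bp of its start, just under the limit of 0.6 used below. Rab3a (chr8:70754453-70754752, + strand) had the strongest promoter of the set in replicate 2. Capitals mark bases inside footprints of both libraries.
Stx1a promoter: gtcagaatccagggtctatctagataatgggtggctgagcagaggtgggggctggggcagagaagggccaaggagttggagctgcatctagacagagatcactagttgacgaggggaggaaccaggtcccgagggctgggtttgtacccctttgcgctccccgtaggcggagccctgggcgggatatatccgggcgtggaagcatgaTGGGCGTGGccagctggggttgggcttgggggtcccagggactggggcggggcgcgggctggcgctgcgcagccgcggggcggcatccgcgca
Rab3a promoter: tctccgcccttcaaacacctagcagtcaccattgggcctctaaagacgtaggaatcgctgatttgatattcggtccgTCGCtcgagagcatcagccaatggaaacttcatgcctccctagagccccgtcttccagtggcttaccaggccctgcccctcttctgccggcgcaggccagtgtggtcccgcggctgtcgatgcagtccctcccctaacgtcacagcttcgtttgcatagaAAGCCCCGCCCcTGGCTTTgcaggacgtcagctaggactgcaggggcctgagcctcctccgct
The next 4 stretches lie beside tRNA genes in the Vamp2 window and are shown for their long footprints, where capitals mark the bases common to both libraries. Each is named by the distance of its DHS from the Vamp2 start in bp, and all are on the + strand of chromosome 11 (chr11:69041747-69041846, chr11:69063100-69063199, chr11:69063542-69063641 and chr11:69110849-69110948).
Vamp2 -46679: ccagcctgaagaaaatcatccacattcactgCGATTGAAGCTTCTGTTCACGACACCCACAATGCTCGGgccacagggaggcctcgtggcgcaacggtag
Vamp2 -25359: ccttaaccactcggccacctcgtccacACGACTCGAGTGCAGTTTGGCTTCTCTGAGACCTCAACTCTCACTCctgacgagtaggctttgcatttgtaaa
Vamp2 -24889: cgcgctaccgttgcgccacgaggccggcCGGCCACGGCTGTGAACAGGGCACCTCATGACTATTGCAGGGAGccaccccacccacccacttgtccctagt
Vamp2 22431: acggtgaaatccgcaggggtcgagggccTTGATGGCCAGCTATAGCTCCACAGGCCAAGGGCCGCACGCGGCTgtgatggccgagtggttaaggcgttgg
A pair of long footprints away from tRNA genes, in the Vamp2 window (chr11:69067021-69067120) and upstream of Stx1a (chr5:135015625-135015724), is shown in the same way.
Vamp2 -21419: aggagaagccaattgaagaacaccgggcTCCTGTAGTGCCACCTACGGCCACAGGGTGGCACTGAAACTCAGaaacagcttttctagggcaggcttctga
Stx1a -7801: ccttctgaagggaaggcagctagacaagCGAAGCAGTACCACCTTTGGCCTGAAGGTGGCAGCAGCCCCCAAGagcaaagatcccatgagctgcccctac
The last pair lies inside the genes: the whole DHS in the Cplx2 intron (chr13:54372841-54373027, + strand, capitals as above) and a match to the RE1 element in the Snap25 intron (chr2:136714260-136714335, + strand), where capitals mark the match.
Cplx2 intron: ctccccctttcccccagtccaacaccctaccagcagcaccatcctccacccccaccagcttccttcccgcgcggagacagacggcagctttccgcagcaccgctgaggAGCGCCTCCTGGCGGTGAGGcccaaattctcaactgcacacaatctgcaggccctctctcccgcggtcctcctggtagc
Snap25 RE1: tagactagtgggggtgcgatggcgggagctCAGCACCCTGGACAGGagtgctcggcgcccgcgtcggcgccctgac

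The files held 59355 calls in replicate 1 and 46566 in replicate 2 in the stricter of the 2 peak lists of each library, and 92872 and 81087 in the lenient lists. Overlapping calls of both libraries formed 26012 shared DHSs, and calls are those of the stricter lists unless the lenient ones are named. The signal value of a call is the authors' tag density. Its scaling is not stated, and its steps would fit libraries of 214 M and 127 M tags (M, mega). At shared DHSs the value in replicate 2 was a median of 2.13 times that in replicate 1, so levels were ranked within each library. Promoters of pan-neuronal markers were open in both libraries at 6 of 6 genes and those of forebrain projection neuron markers at 3 of 7, with all 7 called in replicate 2. The counts were 1 of 4 for astrocytes, 2 of 4 for the oligodendrocyte lineage, 0 of 4 for microglia, 0 of 3 for endothelium, 0 of 4 for hindbrain and spinal cord and 0 of 3 for liver. Of all protein-coding genes 55.7% were open in this way, and no list was tested against that share. Olig2 of the oligodendrocyte list (2.10) and Tmem119 of the microglia list (0.890) were called in replicate 2 alone. Cdh5 of the endothelium list (0.416) was called in replicate 1 alone. Olig2 had calls in both lenient lists.

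Every release machinery gene had a promoter DHS, a call within 1 kb of one of its transcription start sites (TSS), in both libraries: 8 of 8 (100%, exact 95% binomial interval 63.1 to 100). Over all protein-coding genes the share was 55.7%, and it was 57.0% in replicate 1 and 60.2% in replicate 2 taken alone. The 8 genes were chosen with earlier results of these data known, so the interval is no test against these shares. In the lenient lists all 8 again had one, against 61.5% of genes in both libraries, 63.2% in replicate 1 and 64.8% in replicate 2. Openness of promoters goes with CpG content, and these genes are divided on it. Snap25, Stx1a, Syt1 and Cplx2 had fewer CpG sites than 0.6 times the number expected from their C and G content within 500 bp of the TSS (ratios of 0.549, 0.587, 0.484 and 0.559), and 24.1% of all genes under that limit had a shared promoter DHS. Vamp2, Syn2, Cplx1 and Rab3a had ratios of 0.727, 0.814, 0.684 and 0.684, and 90.7% of all genes at or over the limit had one. The 4 genes under the limit lay close to it, and of all genes with a ratio from 0.45 to under 0.6, a band chosen after seeing the data, 67.5% had one. Open promoters were the majority among all genes at or over the limit and in that band, and the minority among all genes under the limit (24.1%). What part CpG content has in the count of 8 was not tested.

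The promoters were open at ordinary strength. Across the 8 genes the signal of the strongest promoter call ran from 1.03 to 1.84 in replicate 1 and from 2.46 to 7.62 in replicate 2, a spread of 1.79-fold and 3.10-fold. Their median rank was the 44.5th percentile of all genes with a promoter call in replicate 1 and the 50.2nd in replicate 2. The order of the levels was Vamp2, Stx1a, Syn2, Rab3a, Cplx2, Cplx1, Snap25 and Syt1 in replicate 1, and Rab3a, Vamp2, Syn2, Syt1, Stx1a, Cplx2, Snap25 and Cplx1 in replicate 2. Counting intervals, taken from the implied tags and covering counting error only, overlapped in all 7 pairs of neighbours of the first order and in 4 of the 7 of the second. In the second, Rab3a lay above Vamp2, Vamp2 above Syn2, and Snap25 above Cplx1 without overlap. Syn2 and Snap25 held the same place in both, and for 5 of the 8 genes the percentiles of the libraries differed by less than 10 points.

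**Figure D1:**
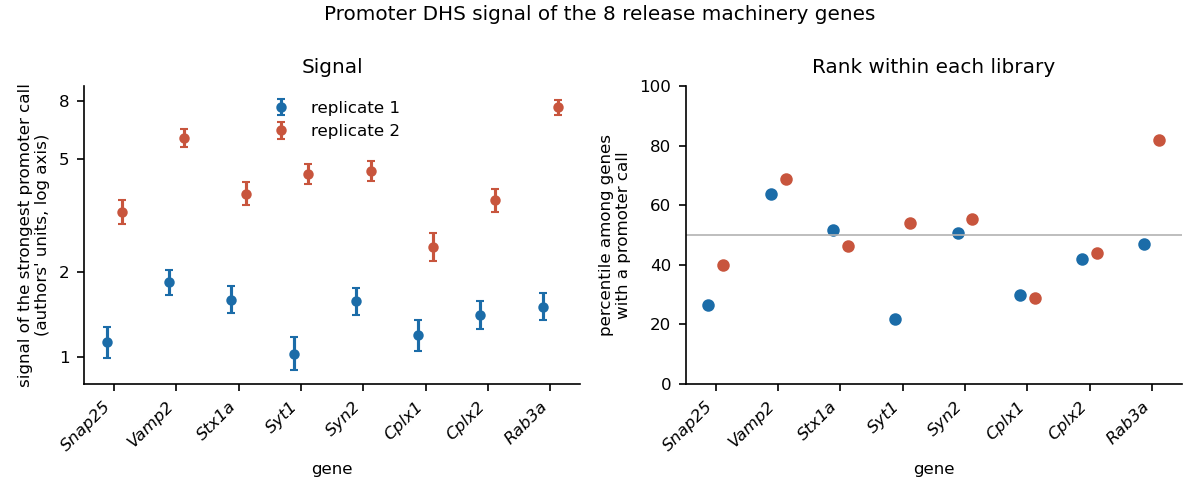
Left, signal of the strongest promoter call of each gene in both libraries (authors' units, log axis), with bars for the exact 95% Poisson interval of the implied tags. Right, its percentile among genes with a promoter call in the same library, with a line at 50. Vamp2 (63.9 and 68.9) and Syn2 (50.7 and 55.3) are above the line in both libraries. Syt1 and Rab3a show the widest gaps between libraries.

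Vamp2, the vesicle SNARE, had a higher promoter signal than Stx1a and Snap25 in both libraries. In replicate 1 its counting interval overlapped that of Stx1a (1.43 to 1.78). The Vamp2 signal was 1.84 (interval 1.66 to 2.03) in replicate 1 and 5.92 (5.51 to 6.36) in replicate 2, at the 63.9th and 68.9th percentile of genes. The call covered chr11:69088421-69088794 in replicate 1 and chr11:69088401-69088620 in replicate 2, across the TSS at position 69088490. Both libraries placed footprints at the start itself. A footprint of 7 bp in replicate 1 and of 31 bp in replicate 2 overlapped a match to the EGR consensus GCGTGGGCG that began 12 bases before the TSS, a match held by 0.807% of all promoters.

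Stx1a, which anchors the complex in the plasma membrane with Snap25, had signals of 1.60 (1.43 to 1.78) and 3.78 (3.45 to 4.14), at the 51.6th and 46.3rd percentile. Its call was compact, with 295 and 260 bp around the TSS at position 135023482 of chromosome 5. The libraries shared 1 footprint there, 9 bp long, centred 38 bases before the TSS (the capitals in the printed Stx1a promoter). There were 3 matches to the SP/KLF box GGGCGG in this promoter, at -74, 1 and 34 bases from the TSS, which overlapped footprints of replicate 2 alone.

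Snap25, the SNARE that supplies a pair of helices to the complex, had lower signals of 1.13 (0.992 to 1.28) and 3.26 (2.95 to 3.59), at the 26.6th and 40th percentile. The main call covered chr2:136713361-136713800 in replicate 1 and chr2:136713321-136713660 in replicate 2. A full CRE, TGACGTCA, began 18 bases before the TSS and overlapped a footprint of replicate 2 alone. The full CRE was present in 2.50% of all promoters. A second shared DHS stood 0.798 kb downstream in an intron, at chr2:136714061-136714440, with signals of 0.752 and 1.60. It contained the RE1 core with 1 mismatch of 14 bases at chr2:136714290-136714305, 837 bases from the TSS. RE1 is the element bound by the repressor REST, which silences neuronal genes in other tissues. No footprint of either library overlapped it, and 0.261% of shared promoter DHSs held the core with at most 1 mismatch in their central 200 bp.

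Syt1, the calcium sensor of fast release, differed most in rank among these genes apart from Rab3a. Its promoter signal was 1.03 (0.900 to 1.18) in replicate 1, the lowest of the set, and 4.43 (4.08 to 4.82) in replicate 2, the fourth. The percentiles were 21.8 and 54.1, and the ratio of 4.30 between the libraries stood at the 92.2nd percentile of genes with a shared promoter DHS, whose median ratio was 2.74. The call spanned 600 bp in replicate 1 and 260 bp in replicate 2 at the TSS on chromosome 10 (position 109010982, - strand). A weaker shared DHS lay 0.628 kb upstream with 0.682 and 0.945, and it was the only shared promoter DHS of the set with no footprint in either library.

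Syn2, which tethers vesicles in the reserve pool, had 1.58 (1.41 to 1.76) and 4.54 (4.17 to 4.92), at the 50.7th and 55.3rd percentile, close to the middle of all genes in both libraries. Cplx1, a clamp and activator of the SNARE complex, had 1.20 (1.05 to 1.35) and 2.46 (2.19 to 2.75), at the 30th and 28.9th percentile. These were the closest ranks of any gene of the set. The Cplx1 call was broad in replicate 1, with 860 bp at chr5:108549441-108550300, and 340 bp in replicate 2, so the calls did not overlap by 50% of both. Its paralog Cplx2 had 1.41 (1.26 to 1.58) and 3.58 (3.26 to 3.93), at the 42.0th and 44.1st percentile. In both libraries Cplx2 stood above Cplx1, with counting intervals that overlapped in replicate 1 and lay apart in replicate 2.

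Cplx2 had a DHS inside the gene that was at least as strong as the one at its GENCODE start. The intronic site at chr13:54372841-54373027, 1.59 kb from the TSS, had 1.49 in replicate 1 and 4.97 in replicate 2, against 1.41 and 3.58 at the promoter. The intronic value lay inside the promoter's counting interval in replicate 1 (1.26 to 1.58) and above it in replicate 2 (3.26 to 3.93). It held a footprint of 20 bp in replicate 1 inside one of 30 bp in replicate 2, the capitals of the printed sequence. Of the distal shared DHSs, it was the only one in an intron of a release machinery gene whose TSS was also the nearest.

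Rab3a, the GTPase that marks synaptic vesicles, had 1.51 (1.35 to 1.68) in replicate 1 and 7.62 (7.14 to 8.11) in replicate 2. It was the fourth of the 8 in the first library and the first in the second. The percentiles were 47.0 and 81.8, and the ratio of 5.05 stood at the 98.3rd percentile of genes. A second promoter DHS 0.452 kb downstream had 1.31 and 3.69. The strongest false discovery rate in the promoter call, given as −log10, was 4.89 in replicate 1 and 120 in replicate 2, while over the other genes it ran from 5.56 (Cplx2) to 14.5 (Syn2) and from 9.65 (Cplx2) to 31.1 (Syt1). The footprints shared by both libraries after the start cover a match to GGGCGG that begins 16 bases past the TSS. A shortened CRE, TGACGTNA, 15 bases before the TSS overlapped a footprint of replicate 2 alone. It was held by 3.79% of promoters, and every full CRE also matches it.

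A footprint common to both libraries, with 1 bp or more of overlap, was present in 10 of the 11 shared promoter DHSs of these genes (90.9%), against 80.3% of all 14584 shared promoter DHSs. The median number of common footprints was 2.00 per DHS in both sets. Consensus letters were searched on both strands from 250 bases before to 50 after each TSS, where a match is a description of the sequence. The SP/KLF box occurred in 7 of the 8 promoters and in 44.9% of all promoters, and Cplx2 was the gene without it. In the window from 500 before to 500 after the TSS all 8 held it, as 61.6% of all promoters did. In the central 200 bp of the shared promoter DHSs it occurred in 5 of 11, against 56.6% of all 14584. AP-1 (TGANTCA, 6.70% of all promoters) and the TATA box (TATAAA, 12.5%) matched in Snap25 alone, and YY1 (AAGATGGCG, 1.79%) in Vamp2 alone. No promoter of the 8 matched ETS (CCGGAAGT, 4.94%), NRF1 (GCATGCGC, 3.81%), the E-box CAGATG (14.6%), RFX (GTTGCCATG, 0.611%), POU (ATGCAAAT, 1.58%), or the consensus of CTCF (0.552%), MEF2 (0.533%) or SRF (1.48%). In the wider window the E-box matched in Snap25, Syn2 and Cplx2 (42.1% of all promoters) and NRF1 in Stx1a (5.61%). No promoter of the 8 in the narrower window held the RE1 core, CAGCACC and GGACAGC with a spacer of 2 bases, with up to 3 mismatches, as 6.27% of all promoters did.

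The surroundings of the genes ranged from nearly empty to crowded. The windows held 53 shared DHSs in all, of which 11 were at the genes' own promoters, 18 at promoters of neighbouring genes and 24 distal. Of the distal DHSs, 2 were in exons, 4 in introns and 18 between genes. Vamp2 had 14 distal DHSs, Syn2 4, Stx1a and Rab3a 2 each, and Snap25 and Cplx2 1 each, while Syt1 and Cplx1 had 0. A further 40 DHSs were called in replicate 1 alone and 76 in replicate 2 alone. The nearest TSS of a distal DHS was that of the release machinery gene in 5 of 24 cases, 3 of them at Syn2, 1 at Snap25 and 1 at Cplx2.

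**Figure D2:**
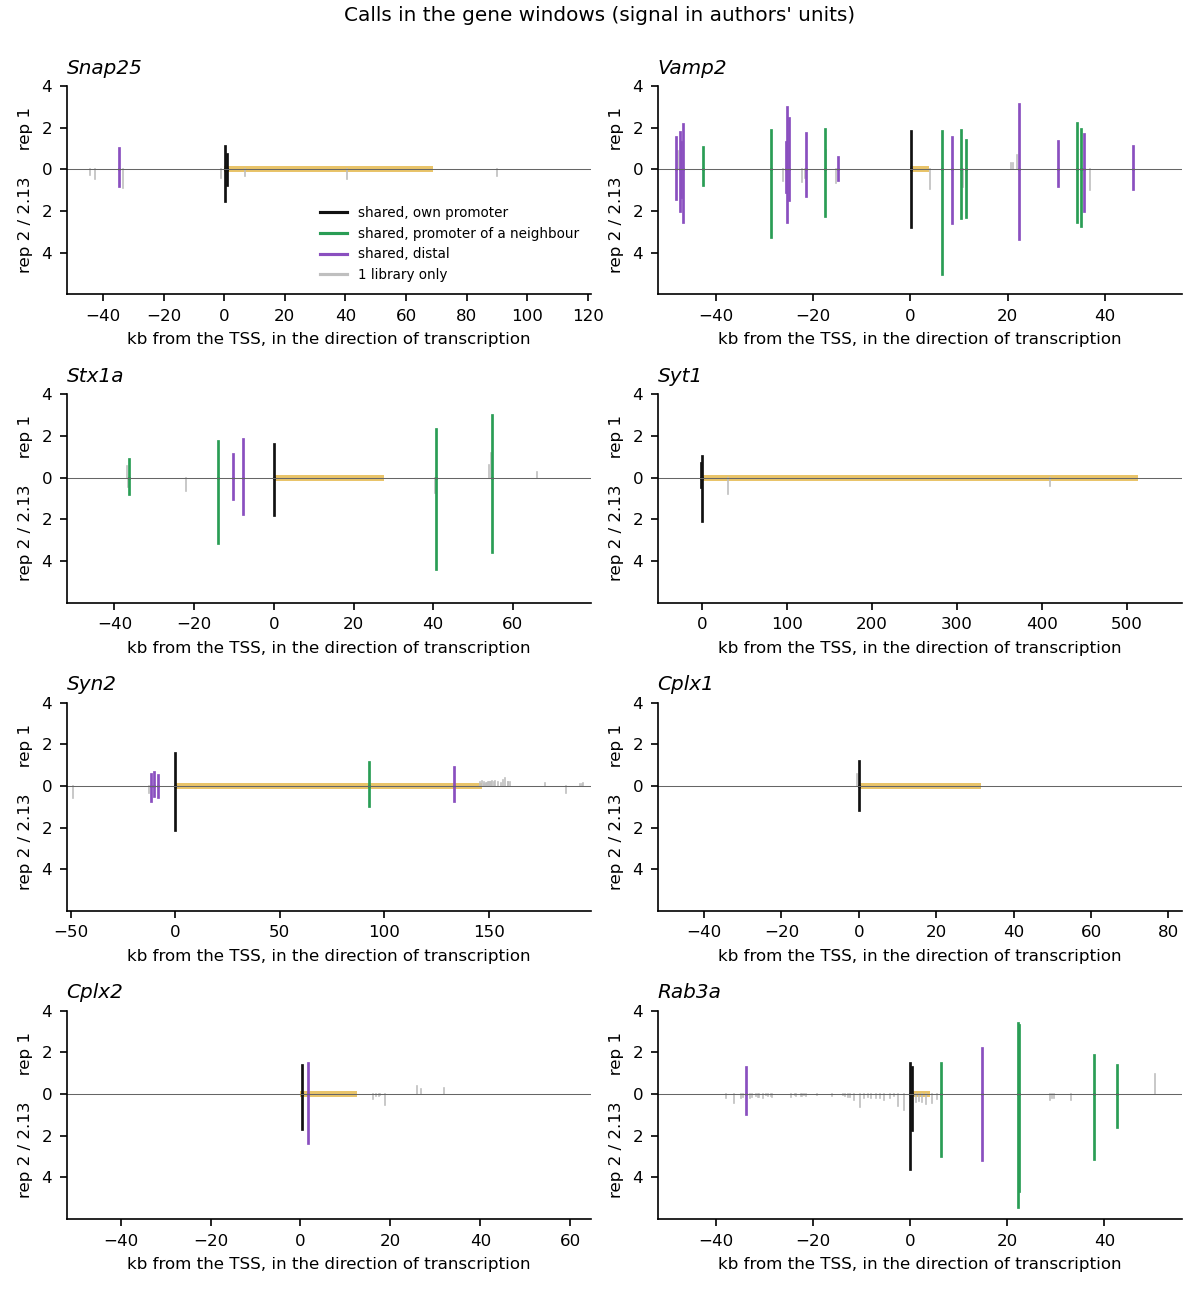
Calls of the stricter lists around each gene by distance from its TSS in kb, with replicate 1 above the axis and replicate 2, divided by the median ratio of 2.13, below it (signal in authors' units). The gene body is the yellow bar. Syt1 and Cplx1 have shared calls at their own promoters alone, and the Vamp2 and Rab3a windows are crowded.

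Syt1 and Cplx1 were the emptiest. The Syt1 window spans 613 kb, since the gene itself covers 513 kb, yet it held 3 calls in replicate 1 and 4 in replicate 2, where the median gene window held 4.00 in each library. Shared DHSs were present at its promoter alone. Replicate 2 had 1 intronic call 31171 bases into the gene with a signal of 1.69 and another 410195 bases in with 0.827. Neither was called in the stricter list of replicate 1, and the first was called there in the lenient list with 0.444. Cplx1 had 2 calls in each library, all at its promoter.

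Upstream of Syn2, 3 weak shared DHSs stood between 8.30 and 11.4 kb from the TSS, with signals of 0.518 to 0.677 in replicate 1 and 1.04 to 1.51 in replicate 2, all below its promoter. The remaining distal shared DHS of Syn2 lay in its intron, 133 kb from the TSS (chr6:115268005-115268180). It had 0.887 and 1.50, the highest mean rank of the 4, and was also below the promoter. Snap25 had a single distal shared DHS 34.6 kb upstream (chr2:136678561-136679160), with 1.03 and 1.72. A further 7 calls in its window were of replicate 2 alone, and these include a promoter call with 0.906. In the lenient lists 5 distal DHSs of Snap25 were shared. The Stx1a DHS 7.80 kb upstream (chr5:135015581-135015780) had 1.85 and 3.75, close to the 1.60 and 3.78 of the promoter, and the other one 10.2 kb upstream had 1.15 and 2.22. In the Rab3a window a DHS in a coding exon of Pik3r2, 14.9 kb downstream, had 2.23 and 6.75, and one in an intron of Gm3336, 33.8 kb upstream, had 1.32 and 2.02.

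Some neighbouring promoters were stronger than the gene's own, by the strongest promoter call of each neighbour in each library. In the Rab3a window the promoter of Pik3r2, a regulatory subunit of PI 3-kinase, had 3.42 and 11.5, above Rab3a's own 1.51 and 7.62. Mast3 had 1.87 and 6.68 there and Mpv17l2 1.50 and 6.37. In the Stx1a window Vps37d, a subunit of the endosomal sorting complex ESCRT-I, had 3.01 and 7.60, the DHS shared by Bud23 and Dnajc30 had 2.33 and 9.31, and Abhd11 had 1.74 and 6.73. Each of these exceeded Stx1a in both libraries. The neighbours of Vamp2 with the highest mean rank were the clock gene Per1 with 1.90 and 10.7, 9130213A22Rik with 2.21 and 5.83, and Borcs6 with 1.89 and 6.88. The values of Per1 and of 9130213A22Rik come from different DHSs in the 2 libraries. The DHS that gave 9130213A22Rik its 5.83 overlapped an arginine tRNA gene, n-TRtct4. The single neighbour with a shared promoter DHS in the Syn2 window, Gm17482, had 1.13 and 2.06.

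The distal DHSs of the Vamp2 window were mostly at tRNA genes. The RefSeq annotation places 15 tRNA genes of 11 amino acid kinds in the window, and 11 of them overlapped a shared DHS. Of the 14 distal DHSs, 10 overlapped a tRNA gene, as did 120 of the 11428 distal shared DHSs of the genome (1.05%). Across the genome 154 of 403 annotated tRNA genes (38.2%) overlapped a shared DHS, distal or at a promoter. No other window of the 8 contained a tRNA gene. The tRNA genes lay 46.7 to 48.1 kb and 24.9 to 26.1 kb upstream of the Vamp2 TSS, and 22.0 to 22.4, 30.4 and 35.1 to 36.8 kb downstream. None of the 14 distal DHSs had Vamp2 as its nearest protein-coding TSS.

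**Figure D3:**
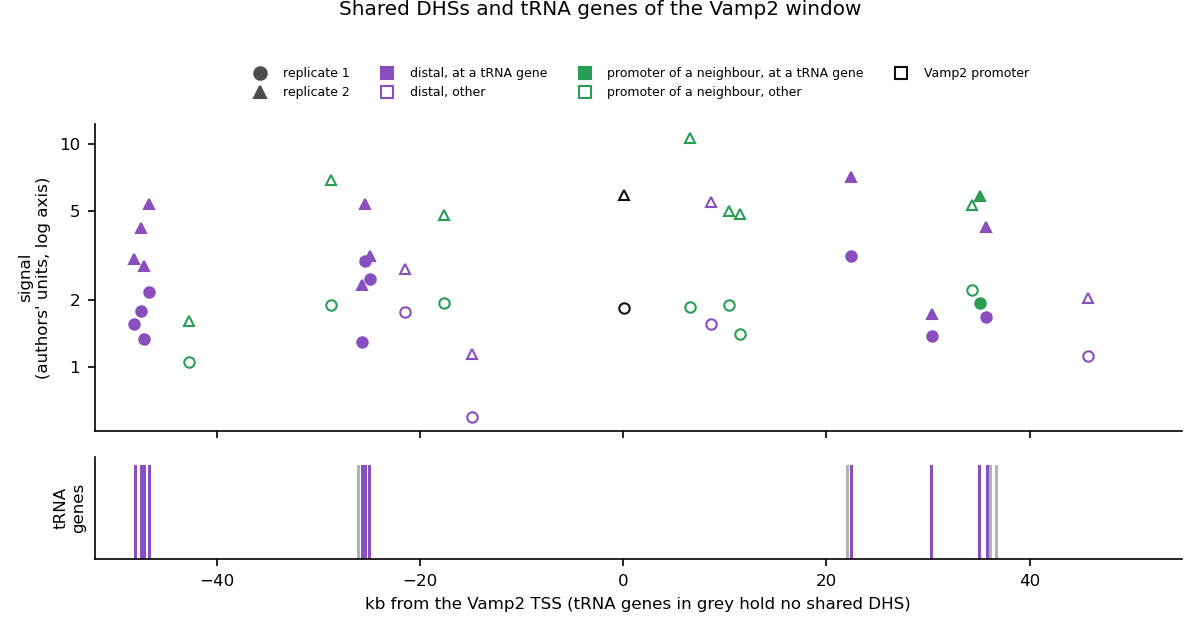
Signal (authors' units, log axis) of the 23 shared DHSs of the Vamp2 window by distance from the TSS in kb, with circles for replicate 1 and triangles for replicate 2, and filled symbols where the DHS overlaps a tRNA gene. The lower strip marks the 15 tRNA genes, of which 4 in grey hold no shared DHS, and the filled symbols stand above the other 11.

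The strongest distal DHS of the window lay at a serine tRNA gene, n-TScga3, at chr11:69110919-69111000, with signals of 3.13 in replicate 1 and 7.10 in replicate 2. This exceeded the Vamp2 promoter (1.84 and 5.92) in both libraries. Next came the serine tRNA gene n-TSgct3 (chr11:69063042-69063123) with 2.97 and 5.40, and the tryptophan tRNA gene n-TWcca7 (chr11:69041826-69041897) with 2.16 and 5.39. Over all 10 the signal ran from 1.29 to 3.13 and from 1.73 to 7.10. The 4 tRNA genes without a shared DHS were n-TIaat4, n-TTagt5, n-TQctg6 and n-TKctt27. All but n-TQctg6 lay in DHSs of both lenient lists, with 0.719 and 1.20 at n-TIaat4, 0.682 and 1.35 at n-TTagt5, and 0.757 and 1.52 at n-TKctt27.

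At 4 of these tRNA genes both libraries held a long footprint in the bases just before the gene. It was common to both over 38 bp at n-TWcca7, 46 bp at n-TSgct3, 44 bp at n-TWcca6 and 45 bp at n-TScga3. The bases between its edge and the first base of the tRNA gene numbered 10 at n-TWcca7 and 3 at both n-TSgct3 and n-TWcca6, and at n-TScga3 it reached 3 bases into the gene. In the printed sequences the capitals therefore end next to the tRNA gene, which follows them on the + strand for n-TWcca7 and n-TScga3 and precedes them for n-TSgct3 and n-TWcca6, which are transcribed from the - strand. As background, RNA polymerase III transcribes tRNA genes from promoters inside the gene, and its factor TFIIIB binds just upstream of them. No factor was assayed here.

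Long footprints of 35 bp or more common to both libraries occurred in 6 of the 24 distal DHSs (25%), against 7.86% of all distal shared DHSs, and in 0 of the 11 promoter DHSs against 1.56%. At a minimum of 30 bp the distal shares were 25% and 17.1%, a smaller gap. Of the distal shared DHSs at tRNA genes over the genome, 27 of 120 (22.5%) had one. The 2 away from tRNA genes were 44 bp long 21.4 kb upstream of Vamp2 (signals of 1.76 and 2.76) and 45 bp long 7.80 kb upstream of Stx1a. Both held the CTCF consensus with 2 mismatches in their central 200 bp, and with up to 2 mismatches it was held by 88.6% of all distal shared DHSs with a long footprint and 65.6% of all distal shared DHSs. Of the 24 distal DHSs around the release machinery genes 8 held it so, and of the 6 with a long footprint these 2. No distal DHS of the 24 held the exact consensus, which 18.3% of all did.

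A pair of windows held long runs of weak calls in a single library. The Rab3a window had 11 calls in replicate 1 and 67 in replicate 2, the 86.6th and the 100th percentile of gene windows. From chr8:70716636 to 70760240, a span of 43.6 kb that covers the Rab3a gene, replicate 2 had 53 calls that replicate 1 lacked, while replicate 1 had 3 calls there. Their median signal was 0.354, and 41 of them lay under the low limit of 0.638 used for that library (0.3 for replicate 1, scaled by 2.13). The lenient list of replicate 1 did not fill the span either, with 3 calls. Footprints there numbered 10 in replicate 1 and 120 in replicate 2. The larger ratio of the Rab3a promoter, given above, was measured inside this span, and what part the run has in it was not tested.

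In the Syn2 window the run was in the other library. From chr6:115280841 to 115295040, 14.2 kb across and past the 3′ end of the gene, replicate 1 had 21 calls and replicate 2 had 0, with a median signal of 0.182 and 20 of them under 0.3. The window held 31 calls in replicate 1 and 9 in replicate 2. Footprints in the span numbered 27 and 1. The Syn2 promoter lies outside the run, 146 kb from its edge, and had nearly the same percentile in both libraries. The cause of neither run was tested.

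**Figure D4:**
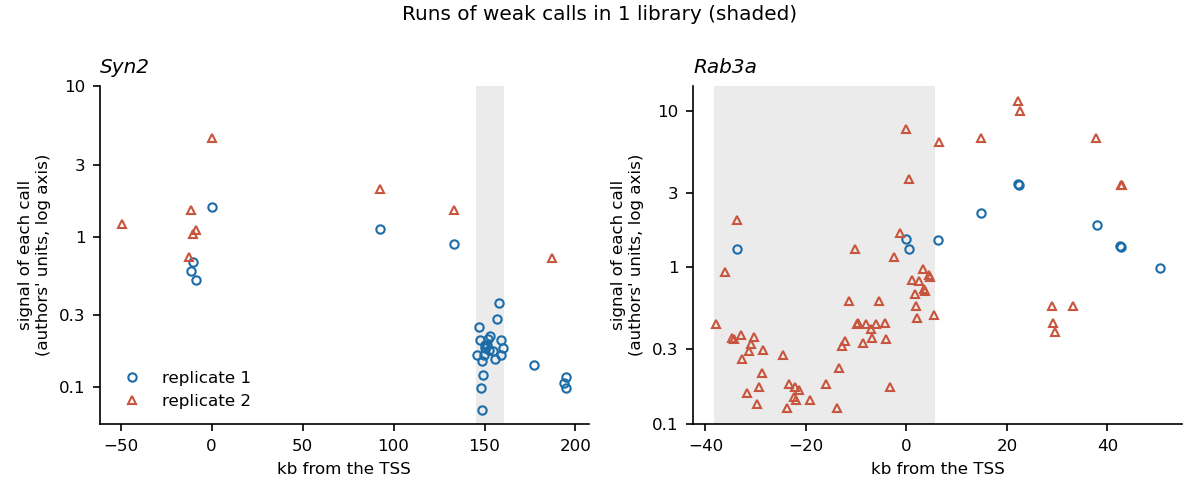
Signal of each call (authors' units, log axis) in the Syn2 and Rab3a windows by distance from the TSS in kb, with circles for replicate 1 and triangles for replicate 2 and the runs shaded. The shaded span holds 21 calls of replicate 1 alone at Syn2 and 53 of replicate 2 alone at Rab3a, most of them below the promoter calls.

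Other genes of the release machinery were read in the same way, by lists that leave out the 8. Of these, 78 of 89 had a promoter DHS in both libraries (87.6%, exact 95% interval 79.0 to 93.7), against 55.7% of all protein-coding genes. These lists were also chosen with earlier results known, so the interval is no test against that share. The CpG content of the other release machinery genes, which goes with openness, was not compared. The median ranks of these other genes were the 37.4th and 43.5th percentile, a little under those of the 8 genes. All 15 genes of SNARE assembly and disassembly had one, as did all 13 of the active zone, all 9 of the Rab3 cycle, all 9 of vesicle recycling and both other synapsins. The other SNAREs had one at 10 of 11, with Vamp8 called in replicate 2 alone and shared in the lenient lists.

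The strongest promoters of these lists lay above most of the 8 genes. Snap29, a widely expressed SNARE, had 3.41 and 13.6, where Snap25 had 1.13 and 3.26. Rab3gap2, a subunit of the GTPase-activating complex of Rab3, had 3.59 and 10.7, Ppfia3, a liprin of the active zone, 3.31 and 12.9, and Dnm1, the neuronal dynamin, 3.40 and 8.01. Stxbp3, a Munc18 protein, had 2.20 and 8.94, Syt5 2.05 and 7.29, Sypl, a relative of synaptophysin, 1.79 and 6.77, and Syn3 1.68 and 6.36.

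Vamp8 aside, gaps fell on the calcium sensors, the vesicle membrane proteins and the complexins. Of the calcium sensors, 12 of 16 had a shared promoter DHS, and Doc2g had no call in either library, while Syt2, Syt6 and Doc2a were called in one. In the lenient lists Syt2, Syt6 and Doc2a each had a shared promoter DHS. Of the vesicle membrane proteins, 8 of 12 had one. Slc17a7 and Slc32a1, the vesicular transporters of glutamate and of GABA, had no call in the stricter lists, yet both had calls in both lenient lists (0.766 and 1.12 for Slc17a7, 0.560 and 1.55 for Slc32a1). Slc17a6, the other vesicular glutamate transporter of the list, had a shared promoter DHS with 0.836 and 1.50. Syngr3 and Sv2b were called in replicate 2 alone, and both had a shared promoter DHS in the lenient lists. The complexins Cplx3 and Cplx4, known from ribbon synapses of the retina, had no call in the stricter lists (0 of 2, interval up to 84.2%), and the lenient list of replicate 2 had a call of 1.00 at Cplx3. They differ in this from Cplx1 and Cplx2, which were called in both libraries.

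**Figure D5:**
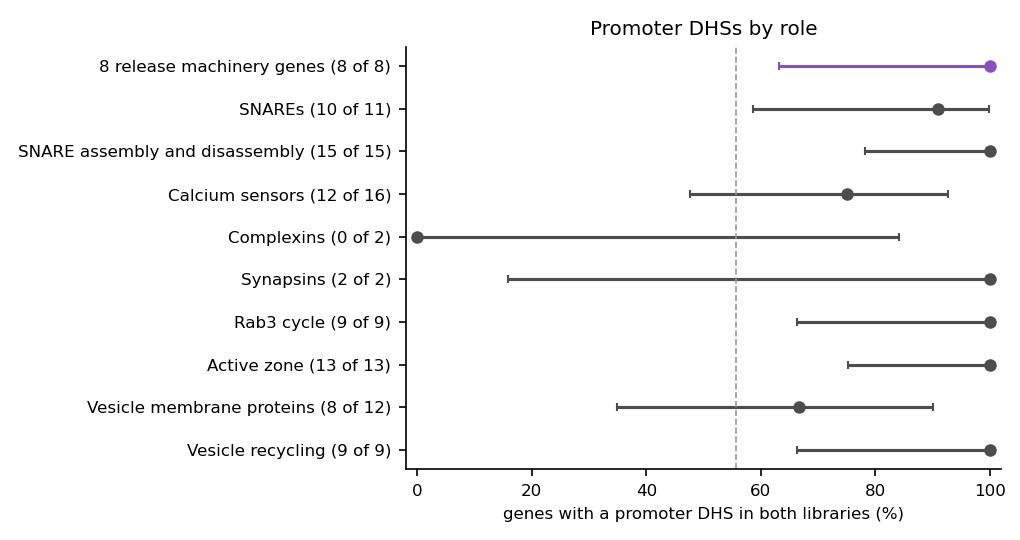
Share of genes with a promoter DHS in both libraries (%) for the 8 release machinery genes and for the other genes of each role, with bars for exact 95% binomial intervals and a dashed line at 55.7% for all protein-coding genes. The share was 100% for 6 of the 10 lists, and the other complexins had 0 of 2. The lists were chosen with earlier results known, so the intervals are no test against the line.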

How the data were processed

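Per the file headers and labels, the authors processed each library on its own, in mm10. The aligner, the caller and their versions were not given in the sources used here. Deposited peak lists hold a signal value per call, read as a tag density. Values below 100 steps were all multiples (within 0.05) of 0.00467 in replicate 1 and 0.00788 in replicate 2, from which tags and exact Poisson intervals were implied. The deposited cut rate files list false discovery rates (q-values) under 0.05. The deposited footprints carry 0.01 on every line, used as no measurement. Shared DHSs, promoter classes and motif matches were computed with Python 3.11.15, numpy 2.4.6, scipy 1.17.1 and pysam 0.24.0 from GENCODE M21 and RefSeq GRCm38.p6, with code tested on simulated calls. The RefSeq start of the printed promoter lies 0 bp from the GENCODE TSS for Stx1a and 24 bp for Rab3a. For Cplx2 the RefSeq promoter table gives a start 68793 bp from the GENCODE TSS. That start lies outside the Cplx2 window and was not examined, and all Cplx2 values refer to the GENCODE TSS. A run was 10 or more calls of 1 library with gaps under 5 kb. With 1 group of 2 libraries, no test was run. The 8 genes and all lists were chosen with earlier results of these data known, and the tRNA genes, long footprints and runs after their values were seen. Named genes were the 8, the strongest of each role list and the first 2 without a call, and up to 3 neighbours and distal DHSs per gene by mean rank, with the genes of counts of 5 or fewer added after their values were seen. At Syn2 all 4 distal shared DHSs are given. Vamp7 was not analysed here. Other lists, windows, overlaps, motif settings and single libraries were tried as alternatives.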

Additional observations from a re-analysis of the deposited data

How the results depend on the processing

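The 8 genes kept a shared promoter DHS in the lenient lists, in the stronger 50% of calls, and with promoter windows of 500 and 2500 bp, and 7 did with a reciprocal overlap of 50%, where Cplx1 dropped out. Each library alone gave 8 of 8. The other release machinery genes ranged from 66 (reciprocal overlap) to 86 (lenient lists) of 89, and each library alone gave 79 to 83. All genes ranged from 9899 to 13497. The 24 distal DHSs became 40 in the lenient lists, 13 and 38 with flanks of 25 and 100 kb, and 5 when the nearest TSS had to be the gene's own. Single libraries gave 60 to 84. Of the settings chosen after seeing the data, leaving out tRNA genes gave 14 and leaving out the Vamp2 window gave 10. Distal DHSs with a long common footprint fell from 6 to 2 without tRNA genes, were 6 and 5 at minimums of 30 and 40 bp (17.1% and 5.42% of all distal shared DHSs), and numbered 6 without replicate 2 (9.49%) and 8 without replicate 1 (21.3%) beside the 7.86% at the reported minimum. Promoter DHSs with a common footprint were 10, 9 with an overlap of 50% of the shorter footprint, and 10 in each library alone. RE1 matches with up to 3 mismatches rose from 0 to 4 promoters in a window from 500 before to 500 after the TSS (23.1% of all promoters), and 3 promoters matched with up to 4 mismatches (34.4%). In the same wider window E-box matches rose from 0 to 3 promoters (42.1%) and NRF1 matches from 0 to 1 (5.61%). The median rank of the 8 promoters was 46 over both libraries and 44.5 to 50.2 in single ones. Each of these settings changes by construction which calls or bases are admitted. With 2 libraries, implied depths and an unstated signal scale, differences in level between the animals cannot be separated from differences between libraries. Differences between genes were read within each library, with intervals that cover counting error only.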
